A study of Mus musculus with 6 samples.

Results

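The genes described here are the mouse oxidoreductases of 6 named families, which interconvert alcohols, aldehydes, ketones and steroids. They comprise the aldo-keto reductases (Akr), the aldehyde dehydrogenases (Aldh), the alcohol dehydrogenases (Adh), the hydroxysteroid dehydrogenases (Hsd), the retinol dehydrogenases (Rdh) and the short-chain dehydrogenases of the Dhrs series. Members were taken by gene symbol, from probe sets annotated with 1 symbol, and each gene was read from its brightest probe set, by the mean of all 6 arrays. This gave 87 genes of the 19938 tested, of which 15 were Akr, 21 Aldh, 7 Adh, 19 Hsd, 14 Rdh and 11 Dhrs genes. By RefSeq annotation, Adh6-ps1 and Rdh18-ps among them are transcribed pseudogenes and Dhrs13os is a long noncoding RNA. They were counted as members by their symbols. The rule for members uses gene symbols, and the measured level only to choose the probe set, but these families were picked for description with earlier results of these data known. Another 4 probe sets named an oxidoreductase together with another gene and were not assigned.

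RNA came from crypts of the mouse intestine, the pockets of epithelium in which stem cells divide. The 3 mice labelled YAP Tg carried, by the series title, YAP-S127A under Villin-rtTA, and 3 mice were labelled control. YAP-S127A is YAP, a coactivator of transcription, with the serine replaced at which Hippo kinases hold it inactive, and Villin-rtTA makes a transgene responsive to doxycycline in the intestinal epithelium. The design text gives 2 days of doxycycline for the mice without telling the groups apart, and does not say which transgenes the control mice carried. Strain, age, sex and the segment of intestine are not stated in the labels. Crypts were released with EDTA and not cultured, and each mouse gave 1 Affymetrix array.

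Akr enzymes reduce aldehydes and ketones with NADPH, and those of the Akr1c group act on steroids, prostaglandins and xenobiotic alcohols. Retinol is oxidised to retinal by Adh and by Rdh, Dhrs and some Hsd enzymes, and retinal is oxidised irreversibly to retinoic acid by the Aldh1a enzymes. The gut epithelium takes up dietary vitamin A as retinol and carotenoids and also makes retinoic acid. It also converts steroids locally: Hsd11b1 regenerates active glucocorticoids, Hsd11b2 inactivates them, and Hsd17b2 inactivates oestradiol and testosterone.

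Values below are log2 signals of a probe set, so a difference of 1 is a doubling, and signals of different genes are not compared because probe sets differ in brightness. Signals of 6617 probe sets numbered below the first annotated one, taken to be array controls, had a median of 5.17 on YAP Tg arrays and 4.97 on control arrays (means of 3 arrays each), and served as a guide to background. The targeted gene did not check the labels, since Yap1 stood at 8.99, 9.27 and 9.25 in YAP Tg crypts and 9.43, 9.48 and 9.31 in control crypts, and whether its probe set covers the transgene is not stated. On the second principal component of all genes YAP Tg mouse 2 stood apart, at -36.1, against 11.7 and 12.5 for YAP Tg mice 1 and 3 and 2.08 to 6.36 for control mice. Markers of cell types moved with the groups. All 6 crypt stem cell markers were lower, with a summed linear signal of 1123 to 2590 in YAP Tg crypts against 10049 to 10602 in control crypts. Such sums, here and below, weigh the brightest probe sets most. Olfm4, the brightest of these markers in control crypts, fell 9.11-fold, and the others fell 1.59-fold to 3.56-fold. Of 10 enterocyte markers 4 were lower and none higher (summed signal 52720 to 65297 against 73655 to 75556), and all 9 measured T cell markers were higher (23955 to 29668 against 9388 to 11190). Of 8 general epithelial markers 4 were higher and none lower (46918 to 48424 against 35716 to 38619). Of 5 hepatocyte markers 2 were lower (229 to 264 against 359 to 466), while Alb, which defines hepatocytes, lay close to background in both groups, with means of 5.24 and 5.22. No marker was at 0, a value these signals do not take. Of 10 stromal, muscle and endothelial markers 1, Vim, was higher and none lower (summed signal 1778 to 2325 against 1338 to 1407). Of 7 myeloid markers Csf1r and Cd68 were higher and Itgam lower (1098 to 1286 against 1162 to 1512). Of 6 colonocyte markers 1 was lower, the chloride exchanger Slc26a3 (log2 change -4.38, limma's adjusted p = 0.000557), while the summed signal overlapped (9214 to 13001 against 10982 to 12969). The part of any of these shifts in the results below was not tested, and in RNA of whole crypts fewer cells of a type cannot be told apart from less RNA per cell.

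Oxidoreductase genes were mostly lower in YAP Tg crypts where they differed. At an adjusted p below 0.05 in limma's test across all genes, 26 of the 87 were lower and 3 were higher, so 33.3% were called, against 14.2% of all genes tested. The lower ones made up 29.9% of the oxidoreductases, against 6.70% of all genes, and the higher ones 3.45% against 7.50%. At least 2-fold lower and past the test were 21 oxidoreductases (24.1%), against 2.35% of all genes, and 9 of them were at least 4-fold lower. The median log2 change was -0.17 over the 87 genes, against 0.03 over all genes. All 3 YAP Tg values lay below all 3 control values for 37 genes (42.5%), against 17.0% of all genes, and above them for 9 (10.3%), against 16.5%. The 46 genes without overlap compare with 33.6% of all genes, and the groups overlapped for the other 41.

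The families differed in how many members were lower. Lower were 6 of 15 Akr (40%), 7 of 21 Aldh (33.3%) and 3 of 7 Adh genes (42.9%). So were 5 of 19 Hsd (26.3%), 2 of 14 Rdh (14.3%) and 3 of 11 Dhrs genes (27.3%). Of all genes tested 6.70% were lower. Higher were 2 Hsd genes (10.5%) and 1 Rdh gene (7.14%), near the 7.50% of all genes. Median log2 changes were -0.17 for Akr, -0.30 for Aldh, -0.18 for Adh, 0.09 for Hsd, 0.05 for Rdh and -0.17 for Dhrs genes. No difference between families was tested. The counts depended on the mice used. Without control mouse 1, 2 or 3 there were 16, 18 or 16 lower and 1, 0 or 0 higher oxidoreductases. Without YAP Tg mouse 1, 2 or 3 there were 24, 32 or 23 lower and 2, 11 or 4 higher. Counts over all genes tested shifted as well. Without control mouse 1, 2 or 3, 369, 421 or 462 of them were lower and 674, 737 or 669 higher. Without YAP Tg mouse 1, 2 or 3, 890, 3889 or 811 of them were lower and 1141, 2802 or 1068 higher. Of the 29 calls, 16 were made under all 13 alternative settings, and all 16 were decreases: Akr1c12, Akr1c13, Akr1c14, Akr1c19, Akr1e1, Aldh1a7, Aldh1b1, Aldh3a2, Adh1, Adh4, Hsd3b7, Hsd11b2, Hsd17b4, Hsd17b6, Dhrs3 and Dhrs4.

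**Figure D1:**
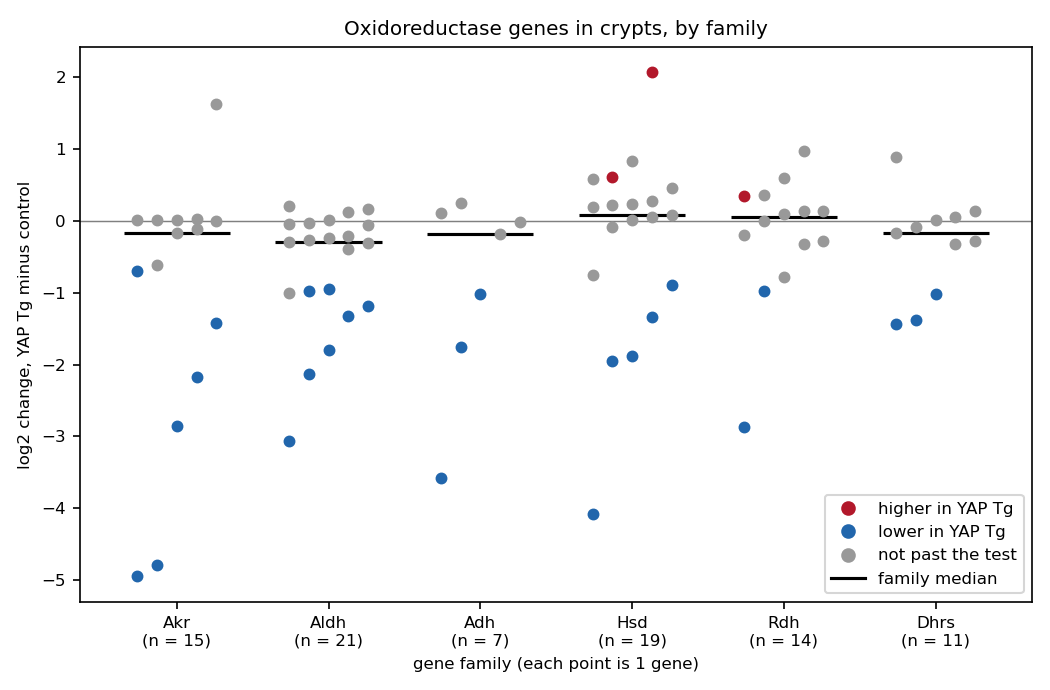
Log2 change (YAP Tg minus control, 3 arrays each) of the 87 oxidoreductase genes by family; each point is 1 gene, coloured by limma's test, and the black line is the family median. The 26 lower genes reach -4.95 in the Akr family, while the 3 higher ones lie in the Hsd and Rdh families.

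Akr1c19 and Akr1c14 had the largest decreases among the oxidoreductases. Hsd17b6, Adh4, Aldh1b1 and Rdh7 fell more than the next Akr1c genes, Akr1c13 and Akr1c12. The Akr1c genes lie in a cluster on chromosome 13 together with Akr1e1. Sequences of 250 bases upstream of the annotated start (RefSeq, GRCm38.p6, each given on the strand of its gene) are shown for the 4 Akr1c genes that fell, because these genes lie within 1 cluster and fell together. Capitals mark each match to TTAANCATT, a repeat noticed on reading these sequences and searched on both strands, with N for any base.
Akr1c14, chr13:4059341-4059590, plus strand: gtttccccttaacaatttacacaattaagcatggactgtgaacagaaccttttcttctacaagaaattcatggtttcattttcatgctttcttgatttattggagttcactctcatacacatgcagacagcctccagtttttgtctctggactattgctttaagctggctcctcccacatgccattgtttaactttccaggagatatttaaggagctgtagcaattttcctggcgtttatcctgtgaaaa
Akr1c13, chr13:4190937-4191186, plus strand: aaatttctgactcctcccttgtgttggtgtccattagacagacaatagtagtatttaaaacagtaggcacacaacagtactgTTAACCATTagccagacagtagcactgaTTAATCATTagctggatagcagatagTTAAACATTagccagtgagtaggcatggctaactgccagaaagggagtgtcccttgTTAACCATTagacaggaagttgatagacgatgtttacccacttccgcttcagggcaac
Akr1c19, chr13:4233490-4233739, plus strand: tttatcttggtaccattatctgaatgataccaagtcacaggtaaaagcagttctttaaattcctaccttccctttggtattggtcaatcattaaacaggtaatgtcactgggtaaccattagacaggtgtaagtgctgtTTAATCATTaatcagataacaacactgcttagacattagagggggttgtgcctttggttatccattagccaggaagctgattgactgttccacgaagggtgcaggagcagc
Akr1c12, chr13:4279400-4279649, minus strand: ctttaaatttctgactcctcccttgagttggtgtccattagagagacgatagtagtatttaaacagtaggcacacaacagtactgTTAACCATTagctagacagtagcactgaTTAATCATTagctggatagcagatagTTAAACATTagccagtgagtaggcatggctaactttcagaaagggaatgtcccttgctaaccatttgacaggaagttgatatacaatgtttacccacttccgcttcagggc
The repeat occurred 4 times upstream of Akr1c13, 3 times upstream of Akr1c12, once upstream of Akr1c19 and not in the window of Akr1c14. Among the 27025 gene starts of the same table, 1.01% held at least 1 copy and 9 held at least 2. The letters came from these same upstream sequences, so this share does not test any role of the repeat. After alignment the upstream sequences of Akr1c13 and Akr1c12 were 92.5% identical, and the other pairs among the 4 genes were between 48.5% and 60.3% identical.

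Akr1c14, a 3-alpha-hydroxysteroid dehydrogenase, had signals of 5.26, 4.87 and 5.27 in YAP Tg crypts against 10.04, 9.76 and 9.97 in control crypts. All YAP Tg values were far below the control values, and on arrays 1 and 2 they lay under the median of the control probe sets. It fell by 4.79 on the log2 scale with an SE of 0.14, and its adjusted p in limma's test, 0.000151, was the smallest of the 87 genes. This difference is a lower bound on the size if that median marks background. Akr1c19, an NAD-dependent dehydrogenase of alcohols and steroids, had 5.72, 6.60 and 5.99 in YAP Tg crypts against 11.14, 10.82 and 11.20 in control crypts. This was a 30.9-fold decrease (log2 change -4.95, SE 0.24, limma's adjusted p = 0.000482). Akr1c13 had 6.43, 6.96 and 7.04 in YAP Tg crypts against 9.72, 9.57 and 9.69 in control crypts (7.23-fold lower, log2 change -2.85, limma's adjusted p = 0.000685). Akr1c12 had 7.57, 7.81 and 8.01 in YAP Tg crypts against 9.96, 9.98 and 9.96 in control crypts (4.50-fold lower, log2 change -2.17, limma's adjusted p = 0.000557). Both are closely related aldo-keto reductases, and signals of such near-identical genes can mix on an array, so their separate values are uncertain.

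All 5 genes of the cluster that were above the control probe sets in control crypts fell. In chromosome order the log2 changes were -4.79 for Akr1c14, 0.02 for Akr1c18, -2.85 for Akr1c13, -4.95 for Akr1c19, -2.17 for Akr1c12, -0.17 for Akr1c6, 0.01 for Akr1c20, 0.02 for Akr1c21 and -0.70 for Akr1e1. The 4 genes Akr1c18 (the 20-alpha-hydroxysteroid dehydrogenase that inactivates progesterone), Akr1c6, Akr1c20 and Akr1c21 lay below the median of the control probe sets on all 6 arrays, so a decrease in them could not have been seen. Akr1e1, which reduces anhydrofructose, had 8.16, 8.08 and 8.19 in YAP Tg crypts against 8.93, 8.81 and 8.79 in control crypts. That decrease of 1.63-fold was small and had little spread (SE 0.07, limma's adjusted p = 0.00288).

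**Figure D2:**
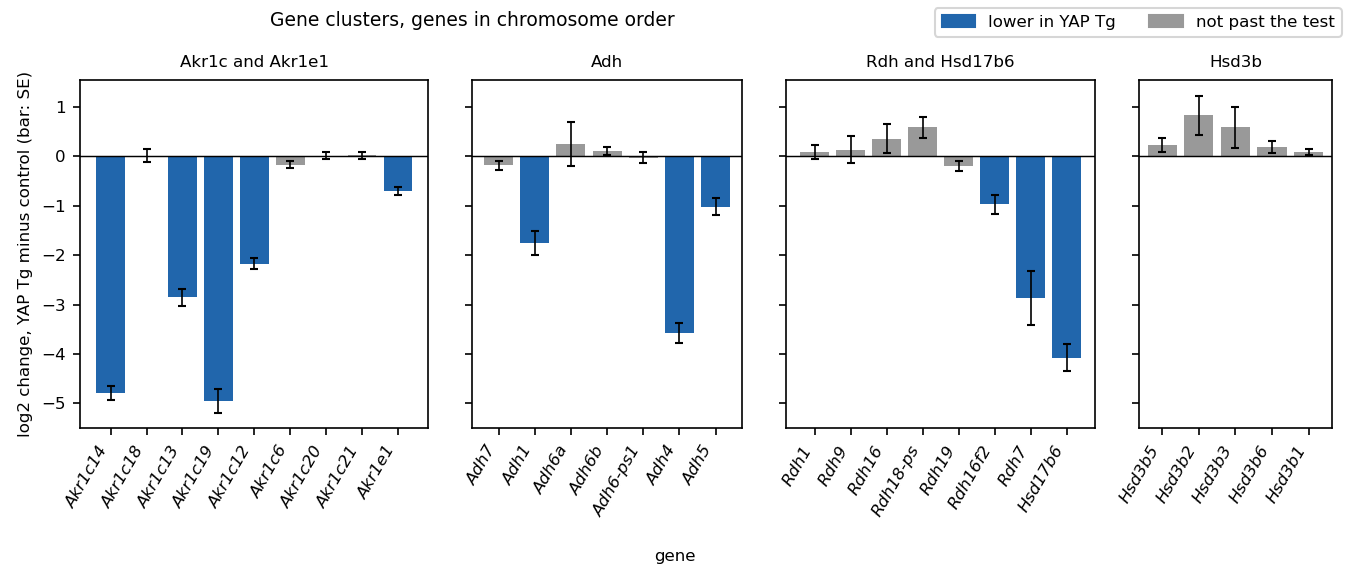
Log2 change (YAP Tg minus control, bars with SE, 3 arrays per group) of the genes of 4 clusters, in chromosome order within each panel and coloured by limma's test. Decreases of Akr1c14, Akr1c13, Akr1c19 and Akr1c12 stand beside Akr1c18, Akr1c6, Akr1c20 and Akr1c21, which are near 0. The latter lie at background in both groups and could show no decrease. In the Rdh cluster the 3 lower genes (Rdh16f2, Rdh7 and Hsd17b6) are next to each other in the panel. Other genes that lie between them are not drawn.

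Outside that cluster, Akr7a5, which reduces aflatoxin aldehyde and succinic semialdehyde, fell 2.69-fold. It had 8.62, 9.32 and 9.46 in YAP Tg crypts against 10.66, 10.45 and 10.58 in control crypts (log2 change -1.43, limma's adjusted p = 0.0105). Leaving out control mouse 1 or 3 ended that call (largest adjusted p 0.0610). Akr1b8, a reductase of retinal and other aldehydes, had 8.99, 9.11 and 7.46 in YAP Tg crypts against 7.12, 6.61 and 6.94 in control crypts. All its YAP Tg values lay above the control values, but mouse 3 was close to them and the change of 1.63 (SE 0.45) did not pass (limma's adjusted p = 0.0619). It was called higher without YAP Tg mouse 3, under quantile normalization and among genes above the median signal. Its relative Akr1b10 had 7.29, 7.87 and 7.57 in YAP Tg crypts against 8.45, 8.29 and 7.84 in control crypts, and its groups overlapped (limma's adjusted p = 0.106). Akr1a1, the general aldehyde reductase that also serves ascorbate synthesis in mice, differed by -0.12 (limma's adjusted p = 0.421). Akr1d1 and Akr1cl lay below the control probe sets in both groups.

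Of 14 listed genes that oxidise retinol, 6 were lower and none higher: Adh1, Adh4, Rdh7, Rdh16f2, Hsd17b6 and Hsd17b13. The lower ones were 42.9% of the list, against 6.70% of all genes tested. This list and the lists of roles below were chosen with earlier results of these data known. The calls of Rdh7, Rdh16f2 and Hsd17b13 were each lost without control mouse 1, 2 or 3. Adh4, the class II alcohol dehydrogenase, had 6.16, 5.72 and 6.27 in YAP Tg crypts against 9.95, 9.36 and 9.59 in control crypts. The groups were wide apart, with a 12.0-fold decrease (log2 change -3.58, SE 0.20, limma's adjusted p = 0.000595). Adh1, the class I enzyme that oxidises ethanol and retinol, had 11.58, 11.14 and 12.15 in YAP Tg crypts against 13.45, 13.33 and 13.35 in control crypts. It fell 3.36-fold (log2 change -1.75, SE 0.24, limma's adjusted p = 0.00736), with more spread among YAP Tg than among control mice.

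The 250 bases upstream of Adh4 (RefSeq, GRCm38.p6) are shown because this gene fell most in its family and its window holds the nuclear receptor half-site more than once. Capitals mark AGGTCA, searched on both strands.
Adh4, chr3:138415247-138415496, plus strand: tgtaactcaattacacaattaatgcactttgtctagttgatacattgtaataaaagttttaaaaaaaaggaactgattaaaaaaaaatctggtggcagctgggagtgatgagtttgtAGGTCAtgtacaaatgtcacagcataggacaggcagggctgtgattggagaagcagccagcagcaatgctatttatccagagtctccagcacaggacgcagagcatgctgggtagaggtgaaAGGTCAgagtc
The half-site occurred 2 times in this window, and 1.32% of the 27025 gene starts held it at least 2 times. Among the oxidoreductases these were Adh4 and Rdh16f2, which fell, and Akr1d1 and Aldh3b1, which did not pass the test. At least 1 copy stood in 5 of the 24 lower oxidoreductases with an upstream sequence (20.8%), in 12 of all 68 oxidoreductases with one (17.6%) and in 13.8% of all gene starts. The TEAD core GGAATG, bound by the DNA-binding partners of YAP, stood in 20.8% of the lower genes, 16.2% of the oxidoreductases and 12.6% of all gene starts. The HNF4A site CAAAGTCCA was in none of the 68 and in 0.381% of all gene starts, the CDX site TTTATNG in 12.5%, 10.3% and 10.2% in the same order, the GATA site AGATAA in 20.8%, 14.7% and 10.3%, and the antioxidant core TGACNNNGC in 4.17%, 8.82% and 10.1%. A match describes letters in these windows, and binding was not measured.

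The remaining Adh genes on chromosome 3 did not move together. Adh5, which clears formaldehyde bound to glutathione, had 9.07, 9.72 and 9.39 in YAP Tg crypts against 10.53, 10.31 and 10.40 in control crypts, a 2.03-fold decrease (log2 change -1.02, limma's adjusted p = 0.0135) that was lost without control mouse 1, 2 or 3 or YAP Tg mouse 3 (largest adjusted p 0.0713). Adh6a, which lies between Adh1 and Adh4, had 12.86, 11.70 and 11.22 in YAP Tg crypts against 12.19, 11.49 and 11.34 in control crypts, and these values overlapped (limma's adjusted p = 0.737). Adh7, the class IV retinol-oxidising enzyme of the stomach lining, had 6.10, 5.85 and 6.05 in YAP Tg crypts against 6.15, 6.12 and 6.25 in control crypts (log2 change -0.18, limma's adjusted p = 0.241). Its groups did not overlap. The differences of Adh6b and Adh6-ps1 were 0.11 and -0.02, and neither passed.

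In the cluster of retinol dehydrogenases on chromosome 10 the lower genes were neighbours among the measured members. Other genes lie between them, 1 between Rdh16f2 and Rdh7 and 6 between Rdh7 and Hsd17b6. Hsd17b6, a short-chain dehydrogenase related to these enzymes that oxidises 3-alpha-hydroxy androgens, had 6.09, 6.11 and 7.08 in YAP Tg crypts against 10.58, 10.45 and 10.47 in control crypts. It fell 16.9-fold (log2 change -4.08, SE 0.27, limma's adjusted p = 0.000913), and YAP Tg mouse 3 was the highest of its group. Rdh7 showed the same order, with 6.75, 6.84 and 8.75 in YAP Tg crypts against 10.50, 9.91 and 10.54 in control crypts. Its decrease was 7.30-fold (log2 change -2.87), with a wide SE of 0.55 on that scale (limma's adjusted p = 0.0207). Rdh16f2 had 5.83, 5.49 and 6.16 in YAP Tg crypts against 7.06, 6.69 and 6.65 in control crypts (1.96-fold lower, log2 change -0.97, limma's adjusted p = 0.0247). The calls of Rdh7 and Rdh16f2 were lost without control mouse 1, 2 or 3 or YAP Tg mouse 1, with adjusted p up to 0.0974 and 0.0989. Rdh1, Rdh9, Rdh16 and Rdh19 in the same cluster had log2 changes of 0.10, 0.14, 0.36 and -0.20, none past the test (limma's adjusted p between 0.263 and 0.758). Genes of this cluster resemble each other, so probe sets may share signal.

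Some retinol dehydrogenases pointed the other way without passing the test. Rdh10, which is needed for retinoic acid synthesis in the mouse embryo, had 10.63, 9.39 and 10.45 in YAP Tg crypts against 9.07, 9.25 and 9.23 in control crypts. YAP Tg mouse 2 lay close to the controls, and the difference of 0.97 had an adjusted p of 0.103 by limma. Dhrs9, which oxidises retinol and 3-alpha-hydroxysteroids, had 7.78, 7.03 and 6.77 in YAP Tg crypts against 6.24, 6.49 and 6.19 in control crypts (limma's adjusted p = 0.0757). Without YAP Tg mouse 2, Rdh10 was called higher, and with array weights both were. Rdh12, a retinal reductase of photoreceptors, was the only Rdh gene called higher with all mice, at 5.56, 5.61 and 5.47 in YAP Tg crypts against 5.21, 5.19 and 5.17 in control crypts. That rise of 0.35 (limma's adjusted p = 0.0225) lay near the level of the control probe sets. The call was lost without any 1 of the control mice and without YAP Tg mouse 1. It was also lost under quantile normalization and with the replicate number as a block. Over these settings limma's adjusted p was at most 0.0941.

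Enzymes that act on retinal were lower where they differed, apart from Rdh12. Dhrs3, which reduces retinal to retinol and thereby limits retinoic acid, had 8.75, 8.77 and 8.68 in YAP Tg crypts against 9.82, 9.73 and 9.72 in control crypts. The 2.03-fold decrease had little spread in either group (log2 change -1.02, SE 0.07, limma's adjusted p = 0.000911). Dhrs4, a peroxisomal NADP-dependent reductase of retinal and other carbonyls, had 9.11, 9.42 and 9.34 in YAP Tg crypts against 10.69, 10.59 and 10.75 in control crypts (2.62-fold lower, log2 change -1.39, limma's adjusted p = 0.00106). Rdh11, an enzyme of retinal reduction, had 7.58, 9.33 and 8.72 in YAP Tg crypts against 9.40, 9.33 and 9.25 in control crypts. Only YAP Tg mice 1 and 3 were below all controls, and the gene was called lower only without YAP Tg mouse 2 (limma's adjusted p = 0.261 with all mice).

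Of the 3 genes that make retinoic acid from retinal, Aldh1a1 fell. It had 9.09, 9.62 and 10.15 in YAP Tg crypts against 11.85, 10.82 and 11.57 in control crypts, a 3.47-fold decrease (log2 change -1.79, SE 0.35, limma's adjusted p = 0.0225). The call was lost without control mouse 1 or 3 or YAP Tg mouse 1, with an adjusted p of up to 0.103. Its rodent paralog Aldh1a7, close to it on chromosome 19, had 6.30, 5.75 and 6.65 in YAP Tg crypts against 8.71, 7.96 and 8.43 in control crypts (4.38-fold lower, log2 change -2.13, limma's adjusted p = 0.00598), and the 2 sequences are alike enough that their signals may mix. Aldh1a2 lay below the control probe sets in both groups, and Aldh1a3 had 6.29, 6.15 and 6.21 in YAP Tg crypts against 6.05, 6.09 and 6.15 in control crypts (limma's adjusted p = 0.328).

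Among 23 other measured genes of retinoid handling, 3 were lower and 1 was higher. That is 17.4% called, close to the 14.2% of all genes tested. Bco2, a mitochondrial enzyme that cleaves carotenoids, had 6.49, 6.09 and 6.45 in YAP Tg crypts against 9.76, 9.74 and 9.76 in control crypts (log2 change -3.41, SE 0.12, limma's adjusted p = 0.000274). The retinol-binding protein Rbp7 had 6.09, 5.65 and 6.46 in YAP Tg crypts against 9.39, 8.87 and 9.29 in control crypts (log2 change -3.12, limma's adjusted p = 0.00106). Lrat, which esterifies retinol for storage and export, had 5.90, 6.26 and 7.36 in YAP Tg crypts against 9.32, 9.47 and 9.32 in control crypts (log2 change -2.86, limma's adjusted p = 0.00527). Rarb, a retinoic acid receptor gene that retinoic acid itself induces in many cells, had 7.37, 7.39 and 7.42 in YAP Tg crypts against 5.86, 6.62 and 6.35 in control crypts. Its rise of 1.12 (limma's adjusted p = 0.0136) did not pass without control mouse 3 or YAP Tg mouse 3 (largest adjusted p 0.0619). The retinoic acid hydroxylase Cyp26a1 stood near background and differed by -0.02 (limma's adjusted p = 0.914), and the enterocyte retinol-binding protein Rbp2 had 12.35, 11.37 and 12.38 in YAP Tg crypts against 12.82, 12.87 and 12.98 in control crypts (limma's adjusted p = 0.0971).

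**Figure D3:**
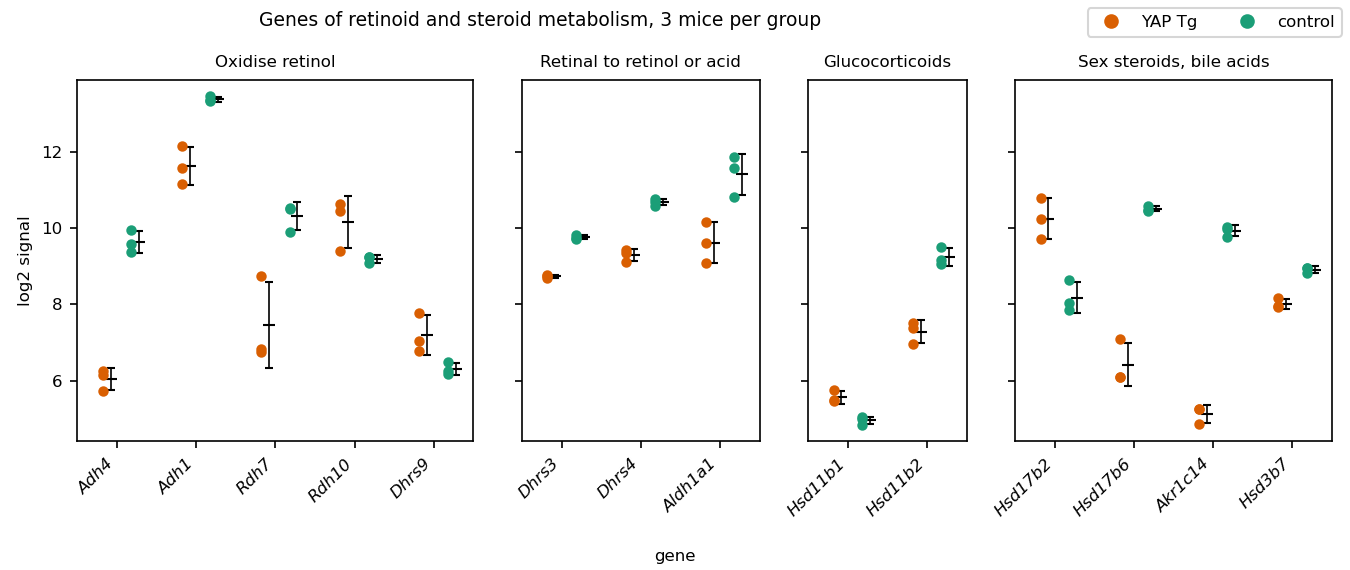
Log2 signal of 14 genes of retinoid and steroid metabolism in each of 3 YAP Tg (left of each pair) and 3 control mice; points are mice, and black bars are the mean and SD. Most genes sit lower in YAP Tg crypts, Hsd17b2, Hsd11b1 and, without passing the test, Rdh10 and Dhrs9 sit higher, and YAP Tg mouse 2 is the lowest of the 3 YAP Tg points of Rdh10.

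Steroid-converting genes were called in both directions. Of 22 measured genes listed for steroids, 4 were lower (Akr1c14, Hsd3b7, Hsd11b2 and Hsd17b6) and 2 higher (Hsd17b2 and Hsd11b1). The lower ones were 18.2% of the list, against 6.70% of all genes, and the higher ones 9.09%, near the 7.50% of all genes. Means of 9 of the 22 lay below the control probe sets in both groups. The list was chosen with earlier results of these data known. It leaves out Akr1c19 and Dhrs9, whose roles given above include steroids, and Akr1c13 and Akr1c12 of the same Akr1c group. Of these, Akr1c19, Akr1c13 and Akr1c12 were lower (log2 changes -4.95, -2.85 and -2.17), and Dhrs9 did not pass. Hsd17b2, which oxidises oestradiol and testosterone to their less active ketones, had 10.79, 9.71 and 10.23 in YAP Tg crypts against 8.63, 8.05 and 7.85 in control crypts. All YAP Tg values were above all control values, and the 4.20-fold rise (log2 value 2.07, SE 0.32, limma's adjusted p = 0.0101) was the largest called increase among the 87 genes. It was also the 1 member at least 2-fold higher and past the test, against 2.60% of all genes, and it missed the threshold without control mouse 2 or 3 (largest adjusted p 0.0573).

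The pair of glucocorticoid enzymes moved in opposite directions. Hsd11b2, which inactivates glucocorticoids and so protects the mineralocorticoid receptor, had 6.95, 7.39 and 7.52 in YAP Tg crypts against 9.50, 9.06 and 9.16 in control crypts, a 3.88-fold decrease (log2 change -1.96, limma's adjusted p = 0.00208). Hsd11b1, which regenerates active glucocorticoids, had 5.77, 5.46 and 5.48 in YAP Tg crypts against 5.04, 4.84 and 4.99 in control crypts. Its rise of 0.61 (SE 0.11, limma's adjusted p = 0.0175) started near background, with the control mean under the median of the control probe sets, and was lost without control mouse 1, 2 or 3 (largest adjusted p 0.0791). H6pd, the enzyme of the endoplasmic reticulum that supplies Hsd11b1 with NADPH, had 9.26, 9.53 and 9.26 in YAP Tg crypts against 7.90, 7.65 and 7.89 in control crypts. That rise of 1.54 (SE 0.11, limma's adjusted p = 0.00106) was called in all 13 alternative settings.

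Genes around steroid synthesis were measured as well. Of 21 other steroid genes, 4 were lower and, with H6pd, 1 was higher. Together these were 23.8% of the list, against 14.2% of all genes tested, and the share higher, 4.76%, was below the 7.50% of all genes. Nr5a2, a nuclear receptor that drives glucocorticoid synthesis in mouse intestinal crypts, had 6.99, 8.10 and 7.58 in YAP Tg crypts against 9.50, 9.63 and 9.32 in control crypts (log2 change -1.92, limma's adjusted p = 0.00793). The other 3 were close to the threshold: the glucocorticoid receptor Nr3c1 (-0.53), the steroid hydroxylase Cyp17a1 (-0.83) and the corepressor Nr0b2 (-0.86), with limma's adjusted p between 0.0452 and 0.0496. Their calls were lost in 8, 5 and 7 of the alternative settings, and adjusted p reached 0.170, 0.171 and 0.178. Cyp11a1, which starts steroid synthesis from cholesterol, had means of 4.70 in YAP Tg and 4.71 in control crypts, below the control probe sets.

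The Hsd3b genes did not pass the test apart from Hsd3b7. Hsd3b7, which acts in bile acid synthesis, had 7.95, 8.16 and 7.92 in YAP Tg crypts against 8.96, 8.81 and 8.95 in control crypts (1.86-fold lower, log2 change -0.90, limma's adjusted p = 0.00275). Hsd3b3 had 9.12, 7.78 and 8.87 in YAP Tg crypts against 8.50, 7.49 and 8.02 in control crypts, and Hsd3b2 had 6.64, 5.12 and 6.28 in YAP Tg crypts against 5.45, 4.89 and 5.20 in control crypts. In both genes mouse 2 was the lowest of its group among YAP Tg and among control mice, and the groups overlapped (limma's adjusted p = 0.382 and 0.212). Hsd3b1 and Hsd3b5 lay below the control probe sets on all 6 arrays, and Hsd3b6 in both group means, with YAP Tg mouse 2 above. A pair of probe sets that names Hsd3b4 together with Hsd3b5 and another gene had means of 5.27 in YAP Tg and 5.15 in control crypts on both.

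Of 12 measured members listed for aldehyde clearance, 5 were lower (41.7%, against 6.70% of all genes) and none higher: Aldh1b1, Aldh3a2, Aldh9a1, Adh5 and Akr7a5. Aldh1b1, a mitochondrial enzyme for acetaldehyde and other aldehydes that is abundant in crypt base cells, had 7.12, 8.44 and 8.17 in YAP Tg crypts against 11.03, 11.04 and 10.86 in control crypts. It fell 8.39-fold (log2 change -3.07, SE 0.33, limma's adjusted p = 0.00310), and YAP Tg mouse 1 was the lowest. The better-known mitochondrial enzyme Aldh2, which clears acetaldehyde from ethanol, had 10.88, 10.45 and 11.06 in YAP Tg crypts against 11.02, 10.89 and 11.11 in control crypts, and its groups overlapped (limma's adjusted p = 0.439). Aldh3a2, which oxidises fatty aldehydes, had 9.78, 9.84 and 10.19 in YAP Tg crypts against 11.08, 10.82 and 10.87 in control crypts (1.98-fold lower, log2 change -0.98, limma's adjusted p = 0.00690). Aldh9a1, an enzyme of carnitine synthesis, had 10.48, 11.16 and 11.13 in YAP Tg crypts against 12.12, 12.08 and 12.12 in control crypts (2.27-fold lower, log2 change -1.18, limma's adjusted p = 0.0113), and its call was lost without control mouse 1, 2 or 3 (largest adjusted p 0.0620).

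Of 10 members listed for amino acid and folate metabolism, 3 were lower (30%, against 6.70% of all genes) and none higher: Aldh9a1, Aldh6a1 and Aldh5a1. Aldh6a1, which acts in valine breakdown, had 6.80, 7.36 and 7.80 in YAP Tg crypts against 8.97, 8.50 and 8.46 in control crypts (2.51-fold lower, log2 change -1.33, limma's adjusted p = 0.0256). Aldh5a1, which oxidises succinic semialdehyde from GABA, had 6.70, 7.63 and 7.28 in YAP Tg crypts against 8.25, 8.24 and 7.99 in control crypts (1.94-fold lower, log2 change -0.95, limma's adjusted p = 0.0455). Both calls were lost without control mouse 1, 2 or 3, and that of Aldh5a1 also without YAP Tg mouse 3 (largest adjusted p 0.106 and 0.166). Aldh18a1, which makes the proline precursor from glutamate, had 9.61, 10.92 and 10.65 in YAP Tg crypts against 11.46, 11.35 and 11.38 in control crypts. Its groups did not overlap, but the difference did not pass (limma's adjusted p = 0.101), and it was called lower without YAP Tg mouse 1 or 2 and with array weights. Aldh16a1, whose substrate is not well known, had 8.18, 8.06 and 8.06 in YAP Tg crypts against 8.35, 8.36 and 8.38 in control crypts, without overlap but short of the threshold (log2 change -0.26, limma's adjusted p = 0.0518). Aldh4a1, of proline breakdown, likewise had all YAP Tg values below the controls, with a change of -0.30 (limma's adjusted p = 0.0643). The folate enzymes Aldh1l1 and Aldh1l2 differed by -0.40 and -0.03 and Aldh7a1, of lysine breakdown, by 0.17, none past the test. Aldh3b1 and Aldh3b2 had all YAP Tg values below the controls, with changes of -0.31 and -0.24 that did not pass. Aldh3a1 and Aldh3b3 differed by -0.04 and -0.06, and Aldh8a1 lay below the control probe sets.

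Among Hsd enzymes of fatty acid metabolism, Hsd17b4, the bifunctional enzyme of peroxisomal beta-oxidation, had 8.60, 9.31 and 9.20 in YAP Tg crypts against 10.49, 10.28 and 10.34 in control crypts. It fell 2.52-fold (log2 change -1.34, SE 0.19, limma's adjusted p = 0.00808). Hsd17b13, a lipid droplet enzyme known for retinol oxidation in human cells, had 6.02, 6.07 and 7.29 in YAP Tg crypts against 8.29, 8.03 and 8.71 in control crypts. That decrease of 3.69-fold (log2 change -1.89, limma's adjusted p = 0.0230) was lost without control mouse 1, 2 or 3 or YAP Tg mouse 1 (largest adjusted p 0.103). Its neighbour Hsd17b11, another lipid droplet protein, differed by 0.06 (limma's adjusted p = 0.833), and Hsd17b12, of fatty acid elongation, by -0.09. Hsd17b10, a mitochondrial enzyme that also forms part of RNase P, had 9.97, 11.04 and 10.72 in YAP Tg crypts against 11.41, 11.22 and 11.36 in control crypts (an adjusted p of 0.12 by limma). Hsd17b1, Hsd17b7 and Hsd17b14 had log2 changes of 0.23, 0.27 and 0.46, none past the test, and Hsd17b3 lay below the control probe sets.

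The rest of the Dhrs genes included 1 lower gene. Dhrs7 had 6.82, 8.20 and 7.74 in YAP Tg crypts against 9.12, 9.04 and 8.91 in control crypts, a 2.71-fold decrease (log2 change -1.44, limma's adjusted p = 0.0374) that was lost without control mouse 1, 2 or 3 or YAP Tg mouse 3 (largest adjusted p 0.143). Dhrs1 and the carbonyl reductase Dhrs11 had all YAP Tg values below the controls, with changes of -0.32 and -0.28 that did not pass (limma's adjusted p = 0.206 and 0.193). Dhrs2, Dhrs7b, Dhrs7c, Dhrs13 and Dhrs13os differed by -0.17 to 0.13. Retinol dehydrogenases not named so far, Rdh5, Rdh8, Rdh13 and Rdh14, differed by -0.33 to 0.14, and Rdh18-ps lay below the control probe sets.

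**Figure D4:**
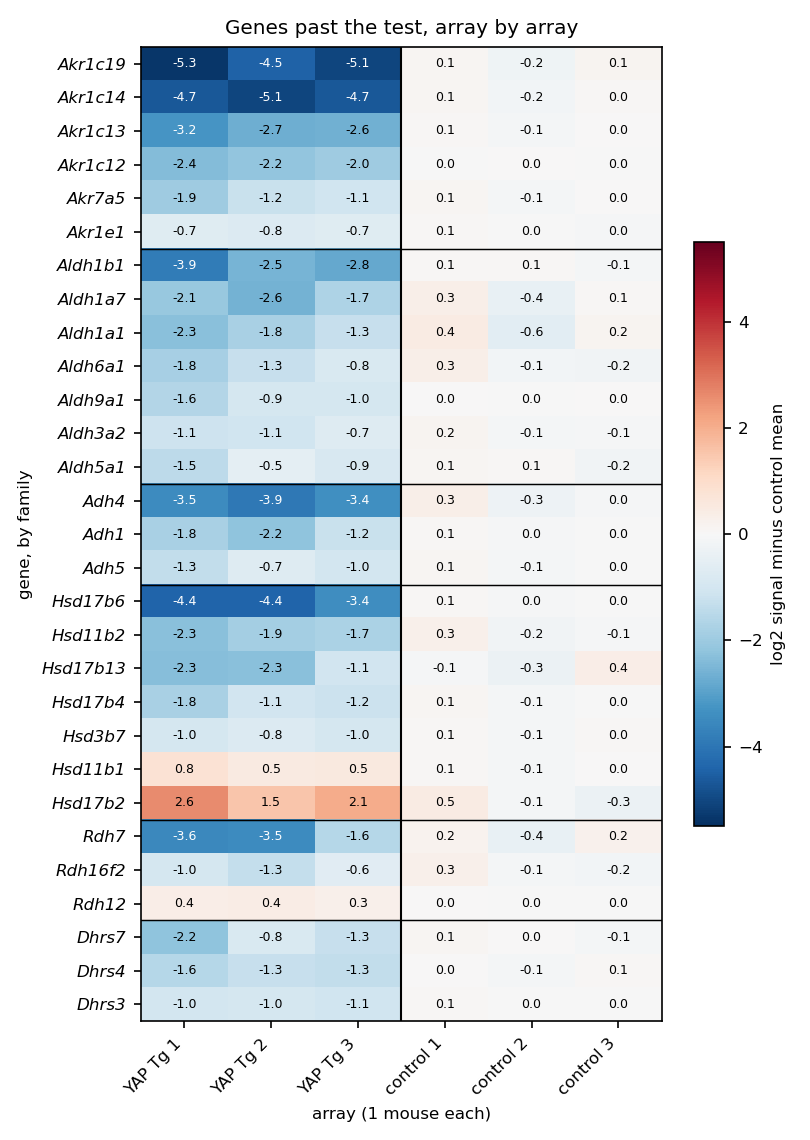
Log2 signal minus the control mean for the 29 oxidoreductase genes past limma's test, in each of 3 YAP Tg (left) and 3 control arrays, with the value in each cell. All YAP Tg cells of the 26 lower genes are negative and YAP Tg mouse 1 has the lowest value in 18 of the 26.

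YAP Tg mice differed from each other more than control mice did. The SD was larger among YAP Tg than among control mice for 71 of the 87 genes (81.6%), against 75.1% of all genes. Median SDs were 0.28 among YAP Tg and 0.10 among control mice for the oxidoreductases, against 0.16 and 0.08 for all genes. Among the 26 lower genes, YAP Tg mouse 1 was the lowest of the YAP Tg mice for 18, mouse 2 for 6 and mouse 3 for 2. Over the 1336 lower genes of the whole array the numbers were 889, 253 and 194. Median differences of the 26 genes from the control mean were -2.01, -1.55 and -1.24 in YAP Tg mice 1, 2 and 3. Among the 14 Rdh genes, called or not, mouse 2 was the lowest for 10, against 41 of all 87 oxidoreductases and 9086 of all 19938 genes.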

How the data were processed

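The values deposited by the authors are log2 signals of 35556 probe sets on 6 arrays, made with Affymetrix Expression Console 1.1 per the submitters' processing notes. That they are log2 follows from their range in the deposited table, 1.99 to 14.4. How background was corrected and arrays were normalized is not stated. No detection flags were used; 6617 probe sets numbered below the first annotated one served as a background guide. Of the other 28939, 21789 had 1 gene symbol, 1621 several and 5529 none listed. Entrez identifiers changed 0 symbols. The 19938 genes were tested with limma 3.58.1 in R 4.3.3 (lmFit, eBayes, two-sided, no covariate), with Benjamini-Hochberg adjustment over all of them. Every log2 change is YAP Tg minus control. The number of arrays, 3 per group, limits precision, and each was taken as a separate mouse from its title.

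Members, lists of roles and markers were chosen with earlier results of these data known. The rule named every member past the test with its log2 change, and gave values per array for up to 4 such members per family by p, 1 to 2 per family that did not pass, and all past the test on the retinoid and steroid lists. Values of further genes, and the genes whose upstream sequences are shown, were chosen after their values were seen. The fit was also run on simulated data in which both groups of a gene had the same SD. That run did not cover the unequal spread of these mice. Promoter sequences were matched by symbol for 68 of 87 members. Alternatives were quantile normalization, median centring, a signal filter, a trended robust prior, array weights, averaged probe sets, a block for the replicate number and the omission of each mouse.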

Additional observations from a re-analysis of the deposited data

How the results depend on the processing

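Over all genes tested, 1495 were higher and 1336 lower in YAP Tg crypts. With array weights the numbers were 2459 and 3481, and with the replicate number as a block 975 and 727. Leaving out 1 mouse at a time gave 669 to 2802 higher and 369 to 3889 lower. For the oxidoreductases, array weights gave 8 higher in place of 3 (4 Hsd, 3 Rdh and 1 Dhrs), and 31 lower. Leaving out 1 mouse gave 0 to 11 higher and 16 to 32 lower. By family, lower genes were then 5 to 7 Akr, 3 to 10 Aldh, 2 to 3 Adh, 4 to 6 Hsd, 0 to 3 Rdh and 2 to 3 Dhrs, and higher genes 0 to 1 Akr, 0 to 5 Hsd and 0 to 6 Rdh. Quantile normalization gave 1 higher Akr gene and 0 higher Rdh genes. Among genes above the median signal, where Hsd11b1, Rdh12 and Rdh16f2 were not tested, there were 1 higher Akr gene, 1 higher Hsd gene, 0 higher Rdh genes and 1 lower Rdh gene. The cause of the other changes was not tested. The labels do not say that same-numbered mice are pairs. Deviations of same-numbered mice correlated at -0.13, 0.01 and 0.10 over genes, which with 3 mice per group cannot exclude pairing. With the replicate block, 20 oxidoreductases were lower and 2 higher, among them 4 Aldh and 1 Rdh lower and 0 Rdh higher. The calls lost with this block were those of Adh5, Aldh1a1, Aldh5a1, Aldh6a1, Dhrs7, Rdh12 and Rdh16f2. Of the 29 calls, 16 were made in all 13 settings and 13 were lost in at least 1, and 16 of the 58 genes that did not pass were called in at least 1. No call changed direction. Signals near the control probe sets limit what the arrays can show for 13 oxidoreductases whose means lay below that level in both groups.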

Other observations

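Of 4 probe sets that name an oxidoreductase together with another gene, the one for Aldh3b2 and Aldh3b3 had 6.04, 6.56 and 5.91 in YAP Tg crypts against 7.11, 7.09 and 6.67 in control crypts. Its log2 change was -0.79 (limma's adjusted p = 0.0675 over all probe sets), and its groups did not overlap. The probe sets with 1 symbol gave -0.24 for Aldh3b2 and -0.64, -0.06 and 0.00 for 3 probe sets of Aldh3b3, so probe sets of these lipid aldehyde dehydrogenases disagree in size. The probe set for Rdh11 and Pwwp3a differed by -0.01.

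Identical values to 3 decimals on 2 or more arrays were found for 13 of the 87 oxidoreductases. Akr1cl read 3.89 on all 6 arrays, and 12 of the 87 lay below the median of the control probe sets on all 6.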
